A study of Homo sapiens with 24 samples.

Results

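The mRNAs of 10 human tubulin genes were followed in HepG2, an established hepatoblastoma-derived liver cell line, when each of the 3 IGF2BP proteins was depleted and transcription was then stopped. The members were chosen by name: 4 alpha-tubulin genes (TUBA1A, TUBA1B, TUBA1C, TUBA4A) and 6 beta-tubulin genes (TUBB, TUBB2A, TUBB2B, TUBB3, TUBB4B, TUBB6), 10 of the 58676 gene rows used, and all 10 passed the filter on low counts that left 13136 genes for testing. Cells received a non-targeting siRNA (siControl) or siRNA against IGF2BP1, IGF2BP2 or IGF2BP3 (siIGF2BP1, siIGF2BP2, siIGF2BP3) with a lipid reagent, so that all groups share the transfection and none is a stable clone. Actinomycin D, which blocks RNA synthesis, was present at 5 µg per ml for 0, 3 or 6 h before collection, which gives 24 libraries, 2 for each of the 12 combinations of siRNA and time. The labels only number the replicates; the study's text calls them independent without saying at which step they were separated, so p-values measure the spread between these libraries, which may be partly technical. By its methods, cells transfected on 1 plate were divided among the 3 time points, so libraries of a condition with the same number may come from 1 transfection and not be independent.

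Microtubules are polymers of alpha-beta tubulin dimers, and vertebrate cells draw each subunit from a family of closely related genes, some used in nearly every cell and others mainly in neurons or blood. The level of tubulin mRNA is under a known feedback: when unpolymerised tubulin accumulates, TTC5 binds the first residues of nascent tubulin at the ribosome and, through SCAPER, brings the CCR4-NOT deadenylase to the mRNA being translated, which is then degraded. IGF2BP1, IGF2BP2 and IGF2BP3 are related RNA-binding proteins known to bind methylated mRNAs and to alter their stability, and the series asked how loss of each changes mRNA lifetime.

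The start of the coding sequence is shown first, since it encodes the residues that the feedback reads and shows how the alpha and beta members differ there. Each line gives the first 24 coding bases from the reference transcript (hg38, GENCODE release 44), 5′ to 3′, with the first 4 codons in capitals.
TUBA1A: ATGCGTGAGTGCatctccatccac
TUBA1B: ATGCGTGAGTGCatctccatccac
TUBA1C: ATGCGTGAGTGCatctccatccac
TUBA4A: ATGCGTGAATGCatctcagtccac
TUBB: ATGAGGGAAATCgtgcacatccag
TUBB2A: ATGCGCGAGATCgtgcacatccag
TUBB2B: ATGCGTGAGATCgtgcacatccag
TUBB3: ATGAGGGAGATCgtgcacatccag
TUBB4B: ATGAGGGAAATCgtgcacttgcag
TUBB6: ATGAGGGAGATCgtgcacatccag

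The capitals encode methionine, arginine, glutamate and cysteine in the 4 alpha members and methionine, arginine, glutamate and isoleucine in the 6 beta members, with synonymous codons differing between genes. TUBA1A, TUBA1B and TUBA1C are identical over these 24 bases, and so are TUBB3 and TUBB6.

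The 3 TUBA1 genes lie together on chromosome 12: TUBA1B (ENSG00000123416) at chr12:49127782-49131397 and TUBA1A (ENSG00000167552) at chr12:49184686-49189080, both on the minus strand, and TUBA1C (ENSG00000167553) at chr12:49188736-49274600 on the plus strand, with its first part antisense to TUBA1A. TUBB2A (ENSG00000137267, chr6:3153497-3157544) and TUBB2B (ENSG00000137285, chr6:3223324-3231730) are minus-strand neighbours on chromosome 6, which also holds TUBB (ENSG00000196230, chr6:30717435-30725538, plus strand). TUBA4A (ENSG00000127824) is at chr2:219249710-219277902 on the minus strand, TUBB3 (ENSG00000258947) at chr16:89921392-89938761, TUBB4B (ENSG00000188229) at chr9:137241287-137243707 and TUBB6 (ENSG00000176014) at chr18:12307669-12344320, the last 3 on the plus strand. Every canonical transcript has 4 exons and the printed start codons lie in exon 1.

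Family members resemble each other enough for reads to be lost or shared between them. Coding sequences were 84.4% to 97.2% identical between alpha members, 80.9% to 98.1% between beta members and 52.9% to 55.6% between an alpha and a beta member. Of all windows of one read length (100 bases) in the transcript, none of TUBB6, 1.9% of TUBA4A, 3.0% of TUBB4B and 5.4% of TUBB occur in identical form in another gene or elsewhere in the genome. The share was 12.3% for TUBA1C, 21.2% for TUBA1A, 37.2% for TUBA1B, 48.7% for TUBB2B and 55.6% for TUBB2A. It was 92.5% for TUBB3, mostly because a longer transcript of another gene (ENSG00000198211) covers it on the same strand. That gene had 0 reads in all libraries, against 1614 for TUBB3. How the counting treated such reads is not stated, so values of TUBA1A, TUBA1B, TUBB2A and TUBB2B are uncertain, and those of TUBB3 most of all.

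Depth was 31843248 to 74252042 gene reads per library, and 50889 to 119088 reads fell on ERCC RNAs, synthetic spike-ins added in proportion to total RNA. By the study's methods mRNA was then purified, a step described there as selection of RNA with a poly(A) tail. Loss of the tail and loss of the RNA were therefore not told apart. The siRNA targets were lower in their own knockdowns, averaged over the 3 time points (edgeR): IGF2BP1 was left at 17.7% of siControl (adjusted p = 2.44e-46), IGF2BP2 at 22.96% (2.38e-40) and IGF2BP3 at 28.96% (1.07e-35). All 9 hepatocyte markers examined (among them ALB, AFP and APOB) had a mean of at least 1 CPM (counts per 1000000 gene reads), together 66300 to 98240 CPM. The 5 neuron markers summed to 0.241 to 1.496 CPM with NEFL at 0, the 5 fibroblast markers to 0.0333 to 0.400 CPM with LUM at 0, the 4 leukocyte markers to 0.994 to 2.41 CPM and the 4 endothelial markers to 0.934 to 2.70 CPM.

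At 0 h, tubulin mRNA in siControl cells came mainly from 4 genes. From here on, CPM is also scaled by TMM, edgeR's library factor computed from gene reads. Compared per kb of transcript, TUBA1B was the most abundant at 524 ± 2.32 CPM per kb (SD, n = 2), followed by TUBB4B at 301 ± 4.67, TUBA1C at 179 ± 2.79 and TUBB at 153 ± 0.440 CPM per kb. These 4, which are used in many tissues, held 97.4% to 98.3% of the family's summed level per kb in every one of the 24 libraries.

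The other 6 members were far lower on the same per-kb scale. TUBB2A was at 11.6 ± 0.0440 CPM per kb, TUBB6 at 8.06 ± 0.301, TUBA1A at 6.86 ± 0.400 and TUBB2B at 2.07 ± 0.131 CPM per kb (SD, n = 2 each). TUBB3, the beta-tubulin best known from neurons, was at 0.923 ± 0.0486 CPM per kb and TUBA4A, an alpha-tubulin known for high levels in muscle, brain and platelets, at 0.752 ± 0.222 CPM per kb. The ranges of TUBB3 and TUBA4A overlapped, while the libraries of all other neighbours in this order were apart. With only unshared windows counted as length, TUBB3 moved to 13.1 CPM per kb, above TUBA1A at 9.26 and TUBB6 at 8.50, so the order of the low members depends on how length is counted.

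**Figure D1:**
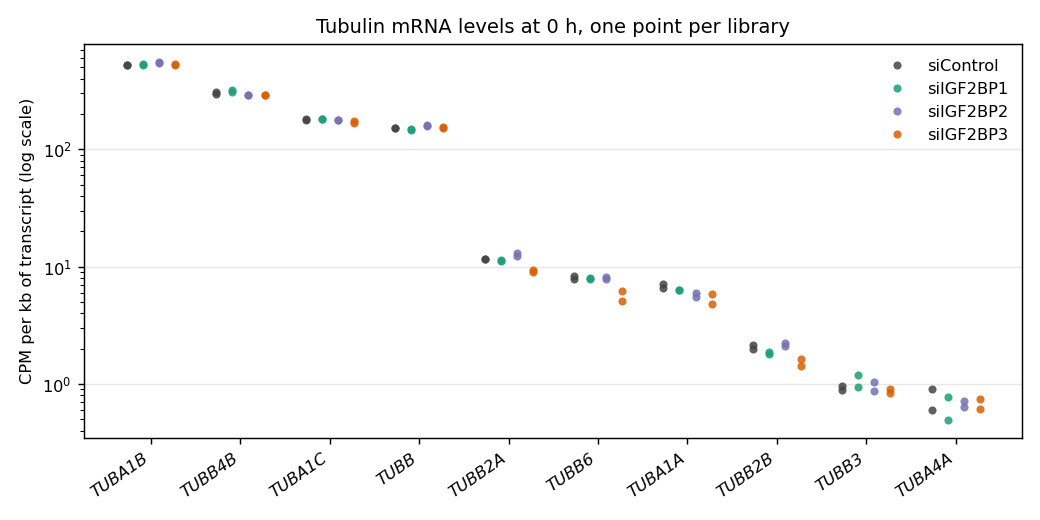
Level of each tubulin mRNA at 0 h, in CPM per kb of canonical transcript on a log axis, 1 point per library (2 in each of 4 conditions). TUBA1B, TUBB4B, TUBA1C and TUBB sit far above the other 6. The points of siIGF2BP3 lie below those of siControl for TUBB2A, TUBB6, TUBA1A and TUBB2B and, by a smaller margin, for TUBA1C and TUBB4B.

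Before actinomycin D, depletion of IGF2BP3 left the abundant tubulin mRNAs near their control level and went with lower levels of 3 minor ones. TUBB6, TUBB2A and TUBA1A were lower in siIGF2BP3 than in siControl, and 7 of 10 members did not pass the test (edgeR quasi-likelihood, adjusted over 13136 genes). Over all genes, 4.47% were called lower in this comparison. The median log2 fold change of the 10 members was -0.13, beside 0.00 for all genes tested. In bulk RNA, fewer cells expressing a gene and less RNA per cell cannot be told apart.

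TUBB6, a broadly expressed class of beta-tubulin known to rise in regenerating muscle, showed the largest difference. The siIGF2BP3 libraries held 11.6 and 9.60 CPM of it, against 15.5 and 14.7 CPM in siControl. The other knockdowns were at 15.0 and 14.7 CPM (siIGF2BP1) and at 14.7 and 15.2 CPM (siIGF2BP2). Both siIGF2BP3 libraries lay below all 6 others. The log2 fold change of TUBB6 against siControl was -0.50 (SE 0.09, adjusted p = 0.000233). None of its windows is shared with another gene, and 422 to 1230 reads stood behind each 0 h value.

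TUBB2A was at 18.7 and 18.8 CPM in siControl and at 14.7 and 15.0 CPM in siIGF2BP3, with 18.04 and 18.4 in siIGF2BP1 and 20.99 and 19.7 in siIGF2BP2. Again both siIGF2BP3 libraries were the lowest of the 8. The log2 fold change against siControl was -0.34 (SE 0.08, adjusted p = 0.00432), but without siIGF2BP3 replicate 1 at 0 h the adjusted p was 0.0636.

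TUBA1A, the alpha-tubulin prominent in developing neurons, was at 11 and 11.95 CPM in siControl and at 8.09 and 9.72 CPM in siIGF2BP3. It was at 10.5 and 10.6 CPM in siIGF2BP1 and at 9.87 and 9.13 CPM in siIGF2BP2. Both siIGF2BP3 libraries were below both siControl libraries and overlapped those of siIGF2BP2. The log2 fold change in siIGF2BP3 was -0.38 (SE 0.10, adjusted p = 0.00985). It lost its call without siIGF2BP3 replicate 1 at 0 h (-0.24, adjusted p = 0.305) or siControl replicate 2 at 0 h (-0.31, adjusted p = 0.143).

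TUBB2B, the near copy of TUBB2A, was at 3.80 and 4.16 CPM in siControl and at 3.16 and 2.73 CPM in siIGF2BP3, without overlap, but its log2 fold change of -0.43 (SE 0.16) did not pass (adjusted p = 0.101). The 4 abundant members were between -0.06 (TUBA1C) and 0.01 (TUBB) on the log2 scale, with 95% intervals that lay between -0.12 and 0.08. TUBB3 and TUBA4A, at 66 to 166 and 41 to 155 reads per 0 h library, had SEs of 0.32 and 0.30, too wide to show a difference of the size seen for TUBB6.

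Scaled to ERCC reads in place of TMM, TUBB6 was still called (-0.43, adjusted p = 0.0209) while TUBB2A (-0.25, adjusted p = 0.246) and TUBA1A (-0.28, adjusted p = 0.247) were not.

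**Figure D2:**
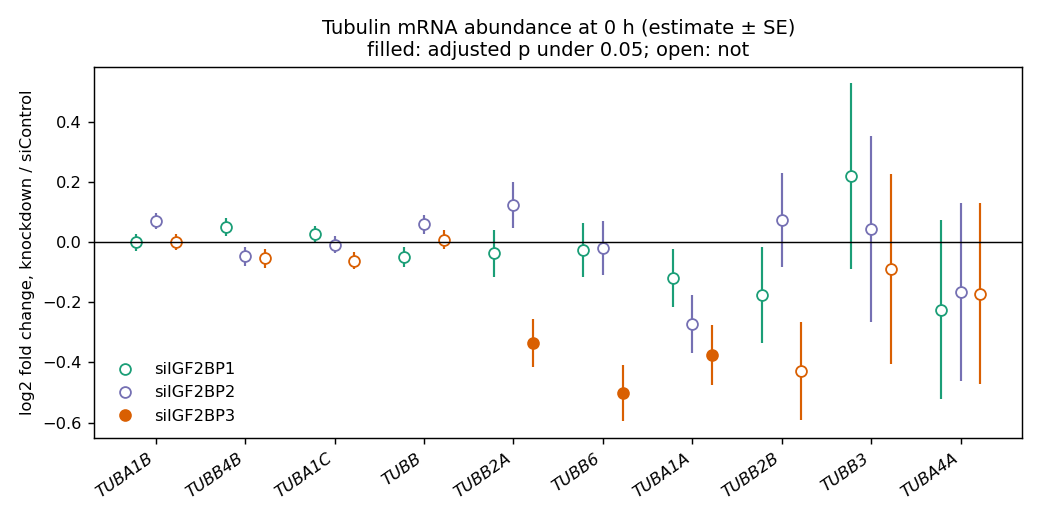
Log2 fold change of each tubulin mRNA at 0 h in each knockdown against siControl, as the edgeR estimate with its SE. The called values are TUBB2A, TUBB6 and TUBA1A in siIGF2BP3, at -0.34, -0.50 and -0.38.

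With IGF2BP1 or IGF2BP2 knocked down, no member passed the same test at 0 h. In siIGF2BP1, 0 of 10 members were called by edgeR or by DESeq2 and 0 had an unadjusted p under 0.05. Of all 13136 genes, 15.9% were called by edgeR and 3499 had an unadjusted p under 0.05. Their log2 fold changes ran from -0.22 (TUBA4A) to 0.22 (TUBB3). In siIGF2BP2, 0 of 10 were called by edgeR, 2 had an unadjusted p under 0.05 and DESeq2 called 1. Of all 13136 genes, 12.1% were called by edgeR and 3032 had an unadjusted p under 0.05. The member called by DESeq2 was TUBA1A, with a log2 fold change of -0.27 in edgeR (SE 0.10, adjusted p = 0.0603) and -0.28 in DESeq2 (adjusted p = 0.0368).

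The knockdowns were also set against each other at 0 h, which tests whether a difference belongs to 1 of them. TUBB6 was higher in siIGF2BP1 than in siIGF2BP3 (log2 difference 0.48, SE 0.10, adjusted p = 0.000372), and likewise in siIGF2BP2 (0.48, SE 0.09, adjusted p = 0.000387). Both calls held in all 24 fits that each left out 1 library, and under ERCC scaling (0.37, adjusted p = 0.044, and 0.49, adjusted p = 0.00476). TUBB2A was higher than in siIGF2BP3 by 0.30 in siIGF2BP1 (adjusted p = 0.00965) and by 0.46 in siIGF2BP2 (adjusted p = 8.31e-05). Its difference between siIGF2BP1 and siIGF2BP3 lost its call without either siIGF2BP1 library at 0 h (adjusted p = 0.0503 and 0.0672) or siIGF2BP3 replicate 1 at 0 h (0.0901). TUBA1A was not separated between siIGF2BP3 and the other knockdowns (0.26, adjusted p = 0.0875 for siIGF2BP1, and 0.10, adjusted p = 0.652 for siIGF2BP2).

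In all, 4 of 10 members were called higher in siIGF2BP1 than in siIGF2BP3 (8.31% of all genes) and 3 of 10 higher in siIGF2BP2 than in siIGF2BP3 (4.91%). Beside TUBB6 and TUBB2A these were TUBA1C (0.09) and TUBB4B (0.10) in the first comparison and TUBB2B (0.50, adjusted p = 0.0464) in the second. The call of TUBB2B held in 10 of the 24 fits that each left out 1 library, that of TUBA1C in 17 and that of TUBB4B in 21. Such a difference rests on the libraries of its 2 groups at 0 h. Most of these fits left out another library and so tested it little. The differences of TUBA1C and TUBB4B turned sign under ERCC scaling (-0.03 and -0.01, neither called). Between siIGF2BP1 and siIGF2BP2, 2 of 10 members were called, where 18.7% of all genes were: TUBB was lower (-0.11, adjusted p = 0.0119) and TUBB4B higher (0.10, adjusted p = 0.0205) in siIGF2BP1. Each lost its call without any of 3 libraries at 0 h (adjusted p 0.0616 to 0.141 and 0.0954 to 0.225), and TUBB4B also turned sign under ERCC scaling (-0.01).

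The lower share of TUBB6 persisted through the actinomycin D series. Across the 3 time points TUBB6 ranged from 9.60 to 13.3 CPM in the 6 siIGF2BP3 libraries and from 14.7 to 19.2 CPM in the other 18 libraries, so that the groups did not overlap at any time. Of all genes tested, 0.190% had all 6 siIGF2BP3 libraries below the other 18, and TUBB6 was the only one of the 10 members among them; this grouping was examined after the values were seen. TUBB2A in siIGF2BP3, at 14.7 to 17.3 CPM, stayed below siControl at 18.7 to 21.8 CPM but overlapped siIGF2BP1 at 15.4 to 18.7 CPM.

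**Figure D3:**
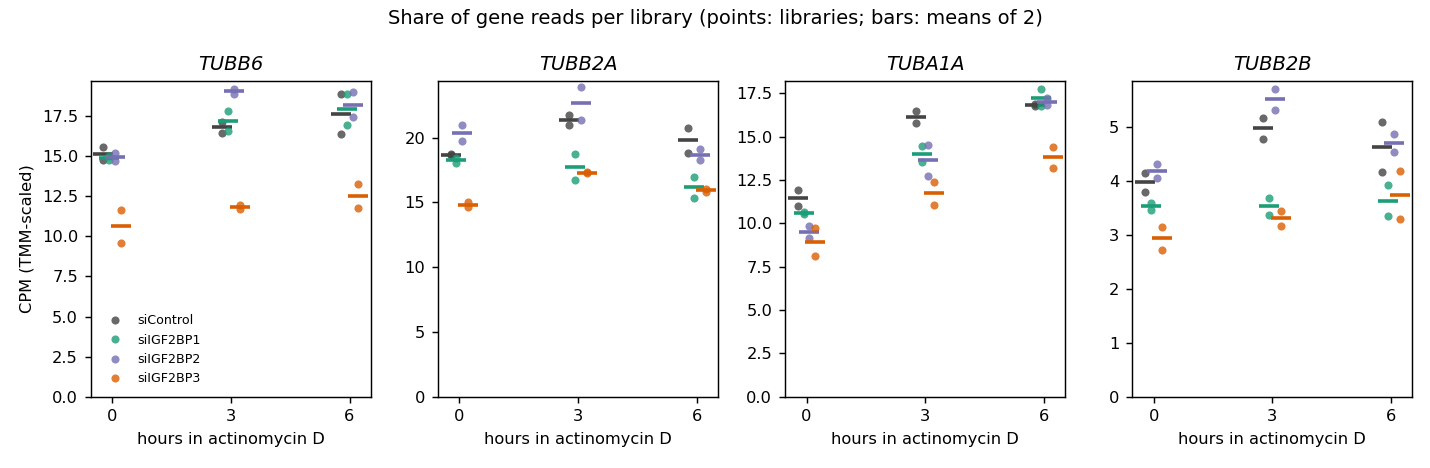
CPM (scaled by TMM) of TUBB6, TUBB2A, TUBA1A and TUBB2B against hours in actinomycin D, 1 point per library with a bar at the mean of 2. For TUBB6 the 6 siIGF2BP3 points lie between 9.60 and 13.3 CPM, below the other 18 at 14.7 to 19.2 CPM.

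Averaging the 3 time points, an alternative chosen after seeing the data, compares 6 libraries with 6 as if all were independent and so finds smaller differences. In siIGF2BP3, 7 of 10 members were called lower, where 16% of all genes were: TUBB6 (-0.50), TUBB2B (-0.44), TUBA1A (-0.38), TUBB2A (-0.32), TUBA1C (-0.08), TUBB4B (-0.07) and TUBA1B (-0.04, against a value of 0.00 at 0 h). In siIGF2BP1, 4 of 10 were lower (18.5% of all genes): TUBB2B (-0.34, adjusted p = 0.00389), TUBB2A (-0.20, adjusted p = 0.000703), TUBA1B (-0.06) and TUBB (-0.05). In siIGF2BP2, 3 of 10 were lower (16.7% of all genes): TUBA1A (-0.17, adjusted p = 0.0174), TUBB4B (-0.08) and TUBA1C (-0.04). With counts first summed over the 3 time points of each replicate number, also chosen after seeing the data, 2 sums stood against 2. Then 4 of 10 members were lower in siIGF2BP3 (3.52% of all genes): TUBB6 (-0.50, adjusted p = 0.00208), TUBB2B (-0.42, adjusted p = 0.0298), TUBA1A (-0.37, adjusted p = 0.0153) and TUBB2A (-0.29, adjusted p = 0.0152). None was called in siIGF2BP1 (7.22% of all genes lower) or siIGF2BP2 (5.44%), where TUBB2B in siIGF2BP1 had an adjusted p of 0.0579. The 3 comparisons share the siControl libraries. Most of these small calls rest on the scaling. On the ERCC scale 3 members were still lower in siIGF2BP3 (TUBB6 -0.32, adjusted p = 3.8e-05, TUBB2B -0.26 and TUBA1A -0.19), beside 257 of all 13136 genes. There 3 members were higher (TUBB 0.18, TUBA1B 0.14 and TUBB4B 0.11), beside 6946 of all genes. In siIGF2BP1 and siIGF2BP2 none was lower, beside 1011 and 507 of all genes. In the same order 0 and 4 members were higher, beside 3073 and 5800 of all genes.

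When transcription was stopped in siControl cells, the abundant tubulin mRNAs differed widely in how much was left. On the ERCC scale, TUBB4B was at 54.5% and 47.2% of its 0 h mean after 6 h, while TUBA1B was at 94.4% and 84.7%, TUBA1C at 81.5% and 74.6%, and TUBB at 82.9% and 72.9%. At 3 h TUBB4B was at 82.8% and 81.4%, and the other 3 were between 92.0% and 106%. TUBB4B was thus the lowest of the 4 in every siControl library after 0 h.

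Over 6 h, 9 of 10 members were called lower in siControl (edgeR with 1 slope per condition), where 80.3% of all genes were. The log2 change over 6 h was -0.98 for TUBB4B (SE 0.11, adjusted p = 3.95e-08), -0.79 for TUBB2A (adjusted p = 7.42e-07), and -0.65 for both TUBB6 (adjusted p = 5.06e-05) and TUBB2B (0.000584). It was -1.58 for TUBB3 (SE 0.41) and -1.22 for TUBA4A (SE 0.32), the 2 members with the fewest reads. TUBA1C (-0.36), TUBB (-0.36) and TUBA1A (-0.31, adjusted p = 0.0343) lost the least of those called. The call of TUBA1A was lost without siControl replicate 1 at 0 h (adjusted p = 0.0605), replicate 1 at 6 h (0.0973) or replicate 2 at 6 h (0.235), and TUBA1B was not called (-0.16, SE 0.09, adjusted p = 0.0941) except without siControl replicate 2 at 0 h (-0.28, adjusted p = 0.00606). The median of all genes was -0.88, so that TUBA1B, TUBA1A, TUBA1C and TUBB lost less than 76.5% to 87.4% of genes, TUBB4B less than 46.3% and TUBB3 less than 28.0%.

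**Figure D4:**
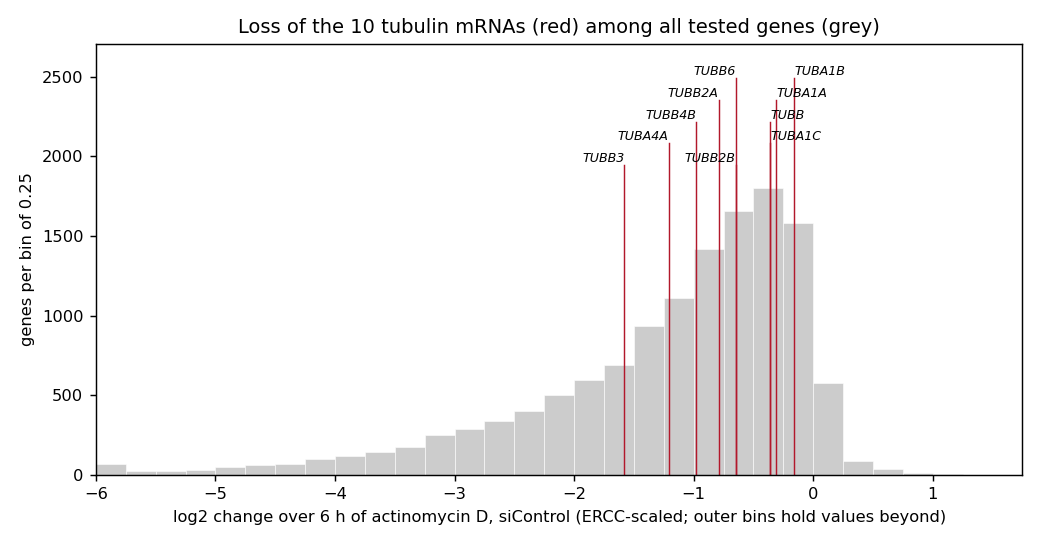
Log2 change over 6 h of actinomycin D in siControl (ERCC scale) for all 13136 genes tested, as grey counts per bin, with the 10 tubulin mRNAs as red lines. TUBA1B, TUBA1A, TUBA1C and TUBB, from -0.16 to -0.36, lie right of the median gene at -0.88, and TUBB4B, TUBA4A and TUBB3, from -0.98 to -1.58, lie left of it.

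TUBB4B was also set against the other abundant members as a ratio within each library, which cancels the library's scale and so uses no spike-in. The log2 ratio of TUBB4B to the mean of TUBA1B, TUBA1C and TUBB was between -0.31 and -0.15 in the 8 libraries at 0 h, between -0.55 and -0.43 in the 8 at 3 h and between -1.04 and -0.88 in the 8 at 6 h, without overlap between times. The mean change by 6 h was -0.73, or 1.65-fold lower, and by 3 h -0.24 (1.18-fold lower). The ratio was chosen after the values were seen and is given as a description. Alongside, alpha-tubulins made up 59.5% to 60.9% of the family's level per kb at 0 h, 62.4% to 63.9% at 3 h and 67.97% to 69.6% at 6 h.

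The contrast between TUBB4B and the other abundant members was also present in each knockdown. TUBB4B, TUBB2A, TUBB6 and TUBB3 were called lower over 6 h in all 4 conditions, and TUBA1B in none. With DESeq2 the calls of TUBB3 were lost in siIGF2BP1 (adjusted p = 0.0528) and siIGF2BP3 (adjusted p = 0.0627), and without a filter on low counts edgeR lost those of TUBB6 in siIGF2BP2 (adjusted p = 0.0556) and siIGF2BP3 (0.0566), of TUBB2B in siIGF2BP2 (0.116) and of TUBA1A in siControl (0.176). The log2 change of TUBB4B was -0.94, -0.86 and -0.79 in siIGF2BP1, siIGF2BP2 and siIGF2BP3, and it was at 51.1% to 60.2% of its 0 h mean in the 6 knockdown libraries at 6 h. TUBA1B was at 91.8% to 107% there. TUBA1A, called lower in siControl, was at 91.3% to 121% in the 6 knockdown libraries at 6 h, against 83.7% and 77.4% in siControl.

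The counts of members called lower were 6 of 10 in siIGF2BP1 (69.1% of all genes), 7 of 10 in siIGF2BP2 (71.3%) and 4 of 10 in siIGF2BP3 (67.2%). Leaving out 1 library gave 4 to 6, 4 to 7 and 2 to 5 in that order. The call of TUBB3 in siIGF2BP3 was lost in 8 of the 24 such fits (adjusted p up to 0.171), that of TUBB6 without siIGF2BP3 replicate 1 at 0 h (0.0893) or replicate 2 at 6 h (0.078) there, and without siIGF2BP1 replicate 2 at 6 h (0.0635) in siIGF2BP1. That of TUBB3 in siIGF2BP1 was lost without either siIGF2BP1 library at 0 h (adjusted p = 0.267 and 0.0643). The median log2 change of the members was -0.65 in siControl, where that of all genes was -0.88. In siIGF2BP1 it was -0.31 beside -0.69, in siIGF2BP2 it was -0.44 beside -0.71, and in siIGF2BP3 it was -0.35 beside -0.65. Under TMM scaling, which puts the median of all genes near 0 (-0.02 in siControl), TUBA1B, TUBA1A, TUBA1C and TUBB were called higher over 6 h in siControl (0.71, 0.55, 0.51 and 0.51). So were 4773 of all 13136 genes. A fall in these members is thus a fall on the ERCC scale and a smaller loss than that of most genes.

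**Figure D5:**
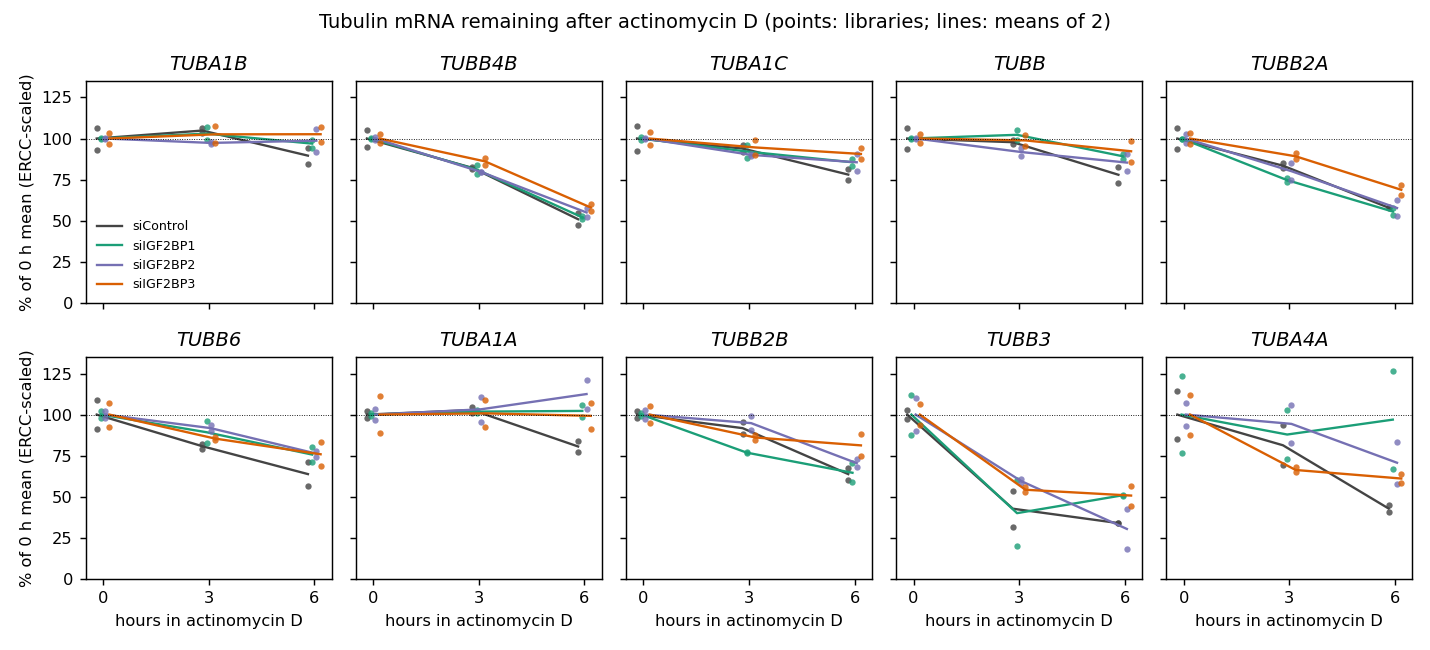
Tubulin mRNA remaining at 0, 3 and 6 h of actinomycin D as a percent of the 0 h mean on the ERCC scale, 1 panel per gene, with points for libraries and lines through the means of 2. TUBB4B is at 47.2% to 60.2% at 6 h in all 4 conditions, TUBA1B stays between 84.7% and 107%, and TUBB3 and TUBA4A scatter most.

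Half-lives were computed as ln2/K, where K is the mean of the decay rates from 0 to 3 h and from 0 to 6 h. In siControl the values were 2.99 h for TUBB3, 6.59 h for TUBA4A, 7.77 h for TUBB4B, 9.15 h for TUBB2A, 9.47 h for TUBB6, 13.4 h for TUBB2B, 22.2 h for TUBA1C, 28.2 h for TUBB and 51.4 h for TUBA1A. TUBA1B lost too little for its value to be read (1 of the 2 replicate series showed no fall). The error was small only for some of the short ones. The SD over the 2 series of same-numbered libraries was 0.729 h for TUBB4B, 0.912 h for TUBB3, 1.46 h for TUBA4A and 1.86 h for TUBB6. It was 3.43 h for TUBB2A, 6.43 h for TUBB2B, 14.4 h for TUBA1C, 15.2 h for TUBB and 37.9 h for TUBA1A. Leaving out 1 library moved the value from 14.06 to 59.5 h for TUBA1C, from 17.5 to 81.2 h for TUBB and from 36.2 to 90.4 h for TUBA1A, and log-linear least squares gave 16.9, 16.7 and 19.2 h. The long half-lives are therefore poorly fixed and their order was not resolved.

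The half-life of TUBB4B in siIGF2BP1 was 7.75 h (7.09 and 8.51 h in the 2 series), for siIGF2BP2 7.89 h (7.71 and 8.07 h) and for siIGF2BP3 9.83 h (9.15 and 10.6 h), where the siControl series gave 7.30 and 8.33 h. Both siIGF2BP3 series lay above both of siControl, with a slope difference that was not called, and those of the other knockdowns overlapped siControl. For TUBB6 the siControl series gave 8.40 and 11.02 h. The value was 16.4 h with siIGF2BP1 (12.4 and 23.3 h), 18.7 h with siIGF2BP2 (18.4 and 19.1 h) and 14.04 h with siIGF2BP3 (11.2 and 19.01 h). Both series of every knockdown thus lay above both of siControl, while none of the 3 slope differences of TUBB6 was called. The 3 knockdowns share the siControl series. Over all genes the median slope difference was also toward less loss, at 0.19, 0.17 and 0.22. TUBB2A was at 7.09, 8.37 and 13.8 h in the 3 knockdowns in that order. The median over the 10 members, with a gene that did not fall taken as longer than any other, was 11.4 h for siControl (9.28 and 15.7 h in the 2 series), beside 7.15 h for the 12151 genes with a mean of at least 1 CPM. It was 21.2 h beside 8.80 h for siIGF2BP1, 18.5 h beside 7.50 h for siIGF2BP2 and 15.2 h beside 9.12 h for siIGF2BP3. A fall was measured for 10, 8, 9 and 8 members in that order. Single libraries moved these medians: it was 11.9 h in siIGF2BP1 without its replicate 2 at 0 h, and 23.2 h in siIGF2BP3 without its replicate 1 at 0 h.

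No difference in decay between a knockdown and siControl passed the test for any tubulin mRNA. With edgeR, 0 of 10 members were called in each of the 3 slope differences, DESeq2 called 0 in each, and 1, 1 and 0 had an unadjusted p under 0.05 in siIGF2BP1, siIGF2BP2 and siIGF2BP3. Among all genes, 0.0152%, 0.0% and 0.0228% were called, so the comparison called almost no single gene. An unadjusted p under 0.05 was found for 1436, 896 and 2113 of all 13136 genes, with median differences of 0.19, 0.17 and 0.22. With the change from 0 to 6 h alone, 86, 72 and 195 genes were called and no tubulin. Without siControl replicate 2 at 0 h, 540 genes were called in siIGF2BP3, again with no tubulin. Positive values stand for less loss than in siControl. The slope difference of TUBB6 was 0.24 (95% interval -0.12 to 0.61), 0.26 (-0.11 to 0.63) and 0.25 (-0.12 to 0.62) for siIGF2BP1, siIGF2BP2 and siIGF2BP3. The members at an unadjusted p under 0.05 were TUBA4A in siIGF2BP1 (1.14, 0.20 to 2.08, adjusted p = 0.424) and TUBA1A in siIGF2BP2 (0.48, 0.09 to 0.87, adjusted p = 0.643). For TUBB4B they were 0.03 (-0.29 to 0.36), 0.11 (-0.21 to 0.44) and 0.19 (-0.14 to 0.52), and for TUBA1B 0.11, 0.14 and 0.20.

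All 10 members had a positive slope difference in siIGF2BP3, from 0.19 (TUBB4B) to 0.58 (TUBB3), though under TMM scaling TUBA1B (-0.03), TUBA1C (-0.01) and TUBB4B (-0.03) were negative, with a median of 0.25 beside 0.22 for all genes. The medians were 0.16 beside 0.19 in siIGF2BP1 and 0.14 beside 0.17 in siIGF2BP2. The lower level of TUBB6 in siIGF2BP3 was thus not accompanied by a called difference in its loss after actinomycin D, and its interval leaves room for a slower loss and for a slightly faster one.

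The loss was also compared between the first and the second 3 h, which shows whether decay was even. TUBB4B lost more in the second 3 h in siControl (difference of the 2 log2 changes 0.41, adjusted p = 0.0316), 1 of 10 members, where 1.64% of all genes were called in that direction. The call was lost without either siControl library at 3 h (adjusted p = 0.284 and 0.177), replicate 2 at 0 h (0.0997) or replicate 2 at 6 h (0.223). TUBB4B was at 0.34, 0.21 and 0.35 in siIGF2BP1, siIGF2BP2 and siIGF2BP3, where 0 of 10 members were called by edgeR, with 2, 0 and 1 members at an unadjusted p under 0.05, and by DESeq2 0, 0 and 1 (TUBB4B, adjusted p = 0.0416). Over all genes, 11.5%, 18% and 12.1% were called in these 3 conditions. An unadjusted p under 0.05 was found there for 2510, 3702 and 2589 of all 13136 genes.

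The 12 genes of the tubulin feedback and CCR4-NOT were all measured. At 0 h, 1 of 12 was higher in siIGF2BP1 and 1 of 12 in siIGF2BP3, and none was lower. Of all 13136 genes, 1239 and 647 were called higher in these 2 comparisons. CNOT1, the scaffold of CCR4-NOT, was higher in siIGF2BP1 (0.18, adjusted p = 1.82e-05), and CNOT11, a smaller subunit, in siIGF2BP3 (0.15, adjusted p = 0.0161). TTC5, which reads the nascent chain, was at 19.2 CPM with siControl, 16.95 with siIGF2BP1 (-0.18, adjusted p = 0.168), 19.2 with siIGF2BP2 and 19.1 with siIGF2BP3. SCAPER, its partner, was at 14.1, 13.8, 14 and 13.6 CPM in the same order. Over 6 h all 12 were called lower in every condition, as were 80.3%, 69.1%, 71.3% and 67.2% of all genes (siControl first, then the knockdowns by number), with a median of -1.40 in siControl. The log2 change there was -1.39 for TTC5 and -1.65 for SCAPER.

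Of 12 listed tubulins outside the members, 5 passed the filter. TUBD1, a delta-tubulin of centrioles, was lower in siIGF2BP1 (-0.58, adjusted p = 1.84e-05), and so was TUBB1, the beta-tubulin of platelets (-0.70, adjusted p = 0.00342). TUBG1, the gamma-tubulin that nucleates microtubules, was higher in siIGF2BP1 (0.12, adjusted p = 0.0107) and siIGF2BP3 (0.14, adjusted p = 0.00817). No other member of this list was called against siControl at 0 h. Of all 13136 genes, 2093, 1593 and 1234 were called in siIGF2BP1, siIGF2BP2 and siIGF2BP3, in either direction.

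Of 14 genes of the CCT chaperonin and prefoldin, 3 were higher in siIGF2BP1 (CCT3 by 0.14, CCT7 and CCT5 by 0.08 each on the log2 scale). In siIGF2BP2 or siIGF2BP3, 0 were called. Over all genes, 15.9% were called in either direction in siIGF2BP1, 12.1% in siIGF2BP2 and 1234 of 13136 in siIGF2BP3. Of 7 folding cofactors, TBCB, which handles alpha-tubulin, was higher in siIGF2BP1 (0.36, adjusted p = 3.11e-06) and in siIGF2BP3 (0.18, adjusted p = 0.0253).

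Of 10 genes of the gamma-tubulin ring complex, CDK5RAP2, an activator of the complex, was higher in siIGF2BP1 (0.28, adjusted p = 6.45e-08) and siIGF2BP3 (0.12, adjusted p = 0.0236), and MZT1, a small subunit, was lower in siIGF2BP1 (-0.44, adjusted p = 0.000131). Among 13 measured genes for enzymes that modify tubulin, 2 were higher (TTLL12 by 0.26 and TTL, the tubulin tyrosine ligase, by 0.14) and 1 lower (TTLL3, -0.34) in siIGF2BP1, and 0 were called in siIGF2BP2 or siIGF2BP3. For both lists, the counts over all 13136 genes were 2093, 1593 and 1234 called in either direction in the knockdowns by number.

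Of 16 measured genes for microtubule-associated proteins, 3 were lower in siIGF2BP1, 3 higher and 2 lower in siIGF2BP2, and 3 higher and 1 lower in siIGF2BP3. Over all 13136 genes, 2093, 1593 and 1234 were called at 0 h in these knockdowns, in either direction. EML4, which binds and steadies microtubules, was lower in all 3 (-0.46, -0.31 and -0.20 in the order of their numbers, adjusted p at most 1.54e-05). CKAP5, a microtubule polymerase, was higher in siIGF2BP2 (0.12) and siIGF2BP3 (0.14). Over these 7 lists together, 0 of 77 genes had a called slope difference in any knockdown by edgeR or DESeq2. By edgeR, 14, 5 and 20 of them had an unadjusted p under 0.05 in siIGF2BP1, siIGF2BP2 and siIGF2BP3. So had 1436, 896 and 2113 of all 13136 genes.

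Across the 12 group means on the ERCC scale, the members did not share a single profile. Pearson's r of each with the mean of all 10 (itself included) was 0.95 for TUBB2A, 0.92 for TUBA1C and 0.91 for TUBB4B, and only 0.41 for TUBA1B and 0.30 for TUBA1A. Among 9710 other genes with a mean of at least 5 CPM, the 5 whose group means were most like that mean were LEMD2 (r = 0.98), COMTD1, HS1BP3, CUEDC1 and GOT1 (r = 0.98 each). The points share the time course and its loss of RNA, so the values are a description only.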

How the data were processed

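The deposited values are raw read counts per gene, not normalized. Per the labels and the study's methods, the authors trimmed reads (Trimmomatic 0.39), aligned them to hg38 (HISAT2 2.1.0) and counted them with HTSeq on GENCODE release 29. Counting of multi-mapping and overlapping reads is not given in the sources used here. HTSeq summary rows (13.6% to 17.1% of each library) and 45 Y-copy pseudoautosomal rows were left out. Molecular identifiers are not mentioned in the sources used here, so precision from depth (31843248 to 74252042 gene reads per library) covers counting error only.

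Genes reaching 1 CPM in at least 2 libraries were tested with edgeR 4.0.16 (quasi-likelihood, two-sided, R 4.3.3), with Benjamini-Hochberg adjustment over 13136 genes and a threshold of 0.05. Abundance used 12 group means and TMM scaling. Decay used an intercept and a slope per condition (8 terms) on the ERCC total. Intervals of 95% use t with the residual degrees of freedom (12 or 16). Alternatives were the other scaling, DESeq2 1.42.0, other filters, a replicate block, fewer libraries, leaving out each library and, added later, averages or sums over the 3 time points. The fits were tested on simulated counts. Replicates differed beyond sampling noise in every group (chi-square per degree of freedom 3.17 to 7.83).

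The members and lists were chosen with earlier results of these data known. All 10 members are named. From each other list up to 3 genes are named, those called in the most of the 3 comparisons at 0 h and 3 slope differences, with TTC5 and SCAPER always and the 5 genes of most similar profile; 1 gene that the rule names is not reported here. Positions are from GENCODE release 44 on hg38.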

Additional observations from a re-analysis of the deposited data

How the results depend on the processing

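Same-numbered libraries shared little of their deviation from group means: the correlation had a median of 0.00452 over 66 pairs (-0.0447 to 0.216). It was 0.0196 over the 12 pairs within a condition (-0.00905 to 0.164) and 0.00266 over the 54 between conditions. Counting noise lowers such a correlation, so it cannot show whether same-numbered libraries came from 1 transfection. With the replicate number as a block, the counts of tubulins called were the same in every comparison (9 in siControl over 6 h, 3 in siIGF2BP3 at 0 h), but TUBA4A gained a call (-0.71, adjusted p = 0.0272) and TUBB3 lost its call (-0.996, adjusted p = 0.0538) over 6 h in siIGF2BP3.

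The scaling changed most. Under TMM the falls over 6 h turned positive in siControl for TUBA1B (0.71), TUBA1A (0.55), TUBA1C (0.51), TUBB (0.51), TUBB2B (0.22), TUBB6 (0.22) and TUBB2A (0.083). In siIGF2BP1 this held for TUBA1B (0.63), TUBB (0.51), TUBA1C (0.45), TUBB6 (0.27) and TUBB2B (0.041). In siIGF2BP2 it held for TUBA1B (0.65), TUBA1C (0.45), TUBB (0.44), TUBB6 (0.29) and TUBB2B (0.17), and in siIGF2BP3 for TUBA1A (0.64), TUBB (0.53), TUBA1C (0.50), TUBB6 (0.24) and TUBB2A (0.11). Uncalled under both scalings, TUBA4A turned in siIGF2BP1 (0.598) and siIGF2BP2 (0.176) and TUBB2B in siIGF2BP3 (0.341). Then 4 members were called in siControl, all higher, as were 4773 of all 13136 genes. For early against late change, 5 (siControl), 3 (siIGF2BP1), 6 (siIGF2BP2) and 3 (siIGF2BP3) were called. In the same order, 4163, 3068, 3319 and 3185 of all 13136 genes were called. In siIGF2BP2 the difference turned positive for TUBA1B (0.22), TUBA1C (0.20) and TUBB (0.26). Signs that turned for members uncalled under both scalings are not listed. No half-life median could be given under TMM, since most members did not fall.

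Under ERCC scaling 1 tubulin was called at 0 h in siIGF2BP3 against siControl, 1 between siIGF2BP1 and siIGF2BP3 (TUBA1C turned to -0.028 and TUBB4B to -0.009) and 0 between siIGF2BP1 and siIGF2BP2 (TUBB4B turned to -0.013). All genes called at 0 h numbered 649, 732 and 471 under ERCC scaling and 2093, 1593 and 1234 under TMM in the 3 knockdowns, with 61.0%, 23.1% and 17.6% of calls lower in place of 40.8%, 45.1% and 47.6%. The median log2 fold change of all genes at 0 h moved to -0.02, 0.10 and 0.09. For early against late change 1651 genes were called in siControl and 4163 under TMM.

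Averaged over time, TUBA1B turned in siIGF2BP3 (-0.042). In siIGF2BP2 at 0 h, 1 tubulin was called by DESeq2, with a CPM minimum of 5, and with only the 8 libraries at 0 h. Without a filter 1 was called between siIGF2BP1 and siIGF2BP2 (TUBB lost its call, adjusted p = 0.0586), and the calls against siIGF2BP3 of TUBA1C in siIGF2BP1 (0.0715; 0.0567 with a CPM minimum of 5) and of TUBB2B in siIGF2BP2 (0.155) were lost. DESeq2 called 1 for early against late change in siIGF2BP3. The median half-life in siIGF2BP2 was 13.6 h by log-linear least squares and 13.7 h from 0 h and 6 h alone.

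Leaving out 1 library gave 0 tubulins called at 0 h in siIGF2BP1 and siIGF2BP2 and 1 to 3 in siIGF2BP3, where every fit called TUBB6 (adjusted p 0.000129 to 0.0312). Between knockdowns the counts were 0 to 3, 1 to 4 and 2 to 3, and over 6 h 8 to 10 (siControl), 4 to 6, 4 to 7 and 2 to 5. For early against late change they were 0 to 3, 0 to 1, 0 and 0 to 1, and for slope differences 0. Median half-lives ran from 10.9 to 14.4 h, 11.9 to 28.7 h, 17.4 to 23.5 h and 14.6 to 23.2 h. Among values of single members, 3998 kept their direction and side of the threshold or were uncalled, 64 lost a call and 18 gained one. Most of these values come from fits that left out a library of a group outside the comparison, which tests them little. Depth limits TUBB3 and TUBA4A most, at 19 to 166 and 38 to 155 reads per library.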
